A study of Zea mays with 109 samples.

Results

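The tip and the base of the stage 2 leaf of maize plants with 5 visible leaf collars (V5) were compared by the RNA they held. The labels do not say whether this leaf was still growing. The members were the 6 libraries that the labels name as tip or base of this leaf, out of 109 samples in all. Total RNA was measured in 4 of them, with 1 tip and 1 base library for each letter, L or N. The labels give these letters without a meaning. Ribosome-bound RNA, the mRNA recovered with ribosomes, was measured in 2 of them, the tip and the base with the letter L. All plants were of the inbred line B73, were untreated, and were raised in a greenhouse at 25 °C, with light for 12 h and dark for 12 h. Each library is a pool in which RNA from 3 replicates, each made from 5 to 10 plants, was combined in equal parts, so 1 library stands for each end and letter. L and N therefore served as the 2 replicates of an end, and p-values carry no spread between plants. They rest on how differences between leaf positions varied with the letter, over the tip and base and over the first and topmost leaf at V3, which were fitted with them.

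A grass leaf grows from its base. New cells arise in a growth zone at the bottom of the blade and are pushed upwards, so that the base holds the youngest cells and the tip the oldest, most expanded ones. In maize this axis is known as a course from dividing and elongating cells, fed by sugar from older leaves, to green cells that carry out C4 photosynthesis and export sugar. In pooled tissue, fewer cells of a type and less RNA per cell cannot be told apart.

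The total RNA values are TPM, transcript abundances corrected for length and scaled to a common library total by the authors. The listed entries summed to 271658 and 263194 TPM in the tip (L and N) and to 211393 and 236342 TPM in the base, so they cover only part of the TPM scale. At least 1 TPM was listed for 12105 and 13174 entries in the tip and for 12816 and 14193 in the base. TPM keeps no read depth, so the depth behind these values is unknown. None of 50738 identifiers could be paired with a gene name by the reference table used here, so the labelled tissue could not be checked against marker genes and entries are given by identifier, with no function.

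The most abundant entry of all 4 total RNA libraries was the gene model Zm00001d000417. It stood at 101762 TPM in tip L, 99177 TPM in tip N, 58462 TPM in base L and 57836 TPM in base N. That was 37.5% and 37.7% of the listed TPM in the tip, against 27.7% and 24.5% in the base. The groups did not overlap, but the log2 difference of 0.79 (SE 0.279) did not pass limma's test over all entries (adjusted p = 0.156). Of all 16238 entries tested, 1444 had both tip libraries above both base libraries and 5434 had the reverse. The 10 most abundant entries together held 49.8% and 49.5% of the listed TPM in the tip and 38.9% and 36.4% in the base. Among other leaves, Zm00001d000417 ranged from 15248 TPM in the husk leaf to 87225 TPM in the first leaf L.

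Most tested entries were present at both ends. Of 16238 entries that reached 1 TPM in at least 2 of the 8 leaf libraries fitted, 63.3% (10278) were at 1 TPM or more in every tip and base library. In the tip, 165 entries were called higher, which is 1.02% of those tested, and in the base 324 (2%), 3.01% together. A call required a Benjamini-Hochberg adjusted p under 0.05 in limma and a log2 difference of at least 1 on log2(TPM + 1). Among tip-higher entries the log2 difference was 1.63 at the median, and 49 of them differed at least 4-fold. Base-higher entries had a median of 1.51 towards the base, with 85 at least 4-fold and 19 at least 8-fold. The median over all tested entries was -0.17 (tip minus base), or -0.03 after quantile normalization, which called 280 entries higher in the tip and 276 in the base. The split between the ends therefore rests on the scale. With only the 4 tip and base libraries in the fit, limma called 0 of 14078 entries, with 3425 at an unadjusted p under 0.05. With the listed sums made equal, 21789 entries were tested. The count of 489 calls fell to 125 without tip L, 50 without tip N, 29 without base L and 107 without base N, was 96 with the letter left out of the fit, and rose to 1936 with the listed sums made equal, where the median was -0.41.

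Complete on-off differences were few. At 1 TPM or more in both tip libraries and under 0.1 TPM in both base libraries stood 10 entries, of which 8 were called. The reverse held for 31 entries, of which 23 were called. The called entries were not confined to low levels. Their median mean level over the 4 libraries was 4.51 TPM for those higher in the tip and 3.18 TPM for those higher in the base, against 2.59 TPM for all tested entries. The difference of at least 1 on log2(TPM + 1) keeps out entries near 0 TPM, so these higher levels are partly set by the rule.

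Among the called entries, the largest difference towards the tip was seen in the gene model Zm00001d048192. It was at 14.25 TPM in tip L and 35.7 TPM in tip N, and at 0.02 TPM in base L and 0.96 TPM in base N. Both tip libraries lay above both base libraries, and within each end the N library was higher. The log2 difference was 4.06 (SE 0.232, limma adjusted p = 0.00402), with 3.90 in the L pair and 4.23 in the N pair. With the letter left out of the fit the call was lost (adjusted p = 0.111). The levels in the first leaf were 4.82 TPM (L) and 13.2 TPM (N), and in the topmost leaf 2.77 and 12.5 TPM. In the ear leaf and the husk leaf it was at 0.12 and 0.03 TPM, so a high level was no general mark of a grown leaf. Outside leaves it was highest in the primary root at V1, with 3.76 TPM.

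The second among the called entries was ZmLnc005820, whose prefix the sources used here do not explain. It was at 9.73 TPM in tip L, 21.8 TPM in tip N, 0.01 TPM in base L and 0.64 TPM in base N. Its levels in other leaves ran in parallel with those of Zm00001d048192, at 2.93 and 6.62 TPM in the first leaf (L and N). In the topmost leaf they were 1.46 and 7.39 TPM, and in the primary root at V1 1.87 TPM. As separate signals the 2 entries are uncertain, which was not tested. For ZmLnc005820, too, both tip libraries lay above both base libraries, and N was above L at each end. The log2 difference was 3.60 (SE 0.263, limma adjusted p = 0.00684), and the entry missed the threshold without tip N (adjusted p = 0.0503) and with the letter left out (adjusted p = 0.107).

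Towards the base, ZmmRNA003438 differed most of the called entries. It was at 129 TPM in base L and 48.1 TPM in base N, and at 0.34 and 0.31 TPM in the tip. The base libraries lay far above the tip libraries, and here L was the higher letter in the base. The log2 difference was -5.91 (SE 0.358, limma adjusted p = 0.00405). Levels of a similar order were found in the stem (168 TPM), the internode (118 TPM) and the husk leaf (45.9 TPM), whereas the first leaf, the topmost leaf, the third leaf and the ear leaf held 0.15 to 3.41 TPM.

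ZmmRNA002313 stood at 730 TPM in base L, 444 TPM in base N, 21.04 TPM in tip L and 7.49 TPM in tip N. The log2 difference was -5.38 (SE 0.694, limma adjusted p = 0.0210), a call that ended without any 1 of the 4 libraries (adjusted p from 0.0906 to 0.110) and with the letter left out (adjusted p = 0.118). Both base libraries were far above both tip libraries. Unlike ZmmRNA003438, it was high in the topmost leaf, with 1511 TPM in L and 138.5 TPM in N, and in the third leaf with 240 TPM. It was at 0.68 TPM in the husk leaf and at 17.7 TPM or less in every library outside leaves.

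**Figure D1:**
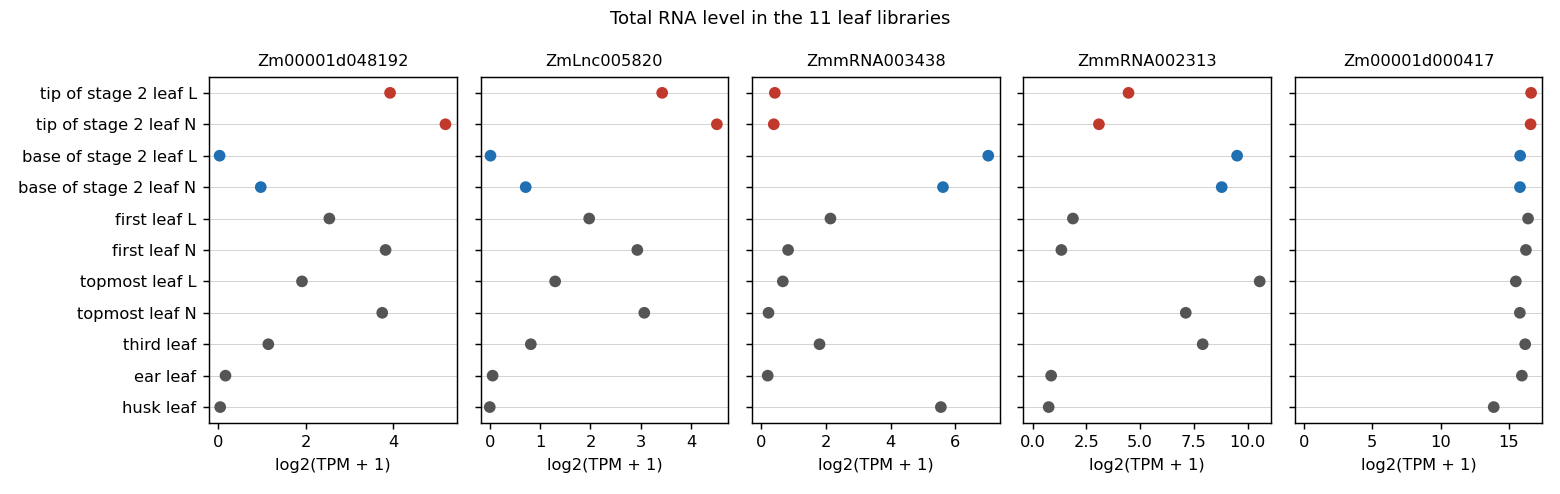
Total RNA levels of the 4 entries with the largest called differences and of the most abundant entry, in log2(TPM + 1) on axes of their own, in the 11 leaf libraries. Red points are the tip, blue the base and grey other leaves. Tip and base do not overlap in any panel, which also holds for 1444 (tip higher) and 5434 (base higher) of the 16238 entries tested. The other leaves fall on different sides from entry to entry.

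The tip-base difference was shared by both letters in part. Across the 16238 entries, which are not independent replicates, the differences of the L pair and the N pair correlated with r = 0.563 and rho = 0.518. A difference of at least 2-fold towards the tip in both letters was seen in 244 entries and towards the base in 363. For at least 4-fold in both letters the numbers were 34 and 54, and 0 entries differed 4-fold in opposite directions. All 165 tip-higher and all 324 base-higher entries had the same sign in both letters, which the call itself largely sets. Their median difference was 1.69 in L and 1.49 in N for the tip-higher entries, and -1.49 in L and -1.55 in N for the base-higher ones.

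Libraries with the same letter were closer to each other than libraries of the same end. By Spearman's rho over the tested entries, tip N was closest to base N (0.863) and less close to tip L (0.794). For tip L the values were 0.849 with base L and 0.794 with tip N. For base L they were 0.849 with tip L and 0.830 with base N. The third leaf at V3, whose label carries no letter, was the nearest library of both tip L (0.885) and base L (0.872).

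Some entries differed between tip and base in 1 letter only. At least 4-fold towards the tip in L, with less than 2-fold in N, were 55 entries, and 36 towards the base. In N the numbers were 52 and 30. None of these entries was called, and with 1 library for each end and letter the difference between letters was not tested. The widest case, chosen after its values were seen, was the transcript entry Zm00001d022665_T001, with 147 TPM in tip N, 0.17 TPM in tip L, 0.01 TPM in base L and 0 in base N.

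**Figure D2:**
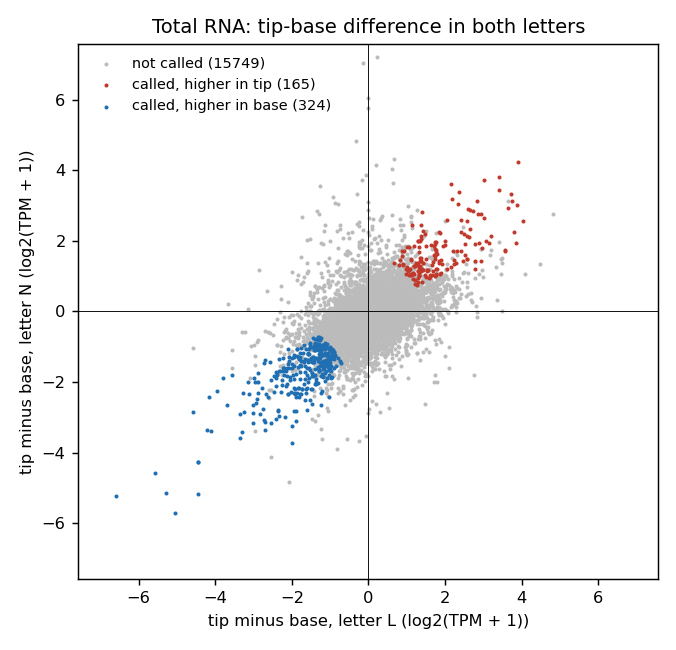
Difference between tip and base in log2(TPM + 1) for each tested total RNA entry, in the L pair (horizontal) and the N pair (vertical); red points are the 165 entries called higher in the tip, blue the 324 called higher in the base and grey the others. Called entries have the same sign in both letters, though not always the same size, and grey points along either axis are entries that differed in 1 letter only.

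The called entries were followed through the other tissues of the series. The first and topmost leaf L and N were part of the filter and the fit behind the calls, and the other tissues were not. The ear leaf held the tip-higher entries at a median of 3.00 on the log2(TPM + 1) scale, next to 3.04 and 2.98 in the tip and 1.13 and 1.24 in the base. Base-higher entries had a median of 0.77 there, next to 0.75 and 1.00 in the tip and 2.55 and 2.75 in the base. In the ear leaf 106 of 165 tip-higher entries (64.2%) lay above the midpoint between tip and base, and 31 of 324 base-higher entries (9.57%), against 39.5% of all tested entries. On this measure the ear leaf was on the side of the tip for both groups.

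In the first leaf the medians were 2.43 (L) and 2.16 (N) for the tip-higher and 1.07 and 1.37 for the base-higher entries. Above the midpoint lay 55.8% and 57.6% of tip-higher entries and 17.6% and 27.2% of base-higher ones, against 65.9% and 76.1% of all tested entries, so both groups were below the background there and the base-higher entries further below it. In the topmost leaf of the V3 plants 20% (L) and 19.4% (N) of tip-higher entries lay above the midpoint, against 41.4% and 65.2% of all tested entries, and for base-higher entries the shares, 49.4% and 63.9%, were near that background. In the husk leaf the medians were 2.06 for the tip-higher and 2.34 for the base-higher entries. There, 45.5% of tip-higher and 59.0% of base-higher entries lay above the midpoint, against 42.2% of all tested entries. The tip-higher share was thus near the background and the base-higher share above it. In the third leaf the tip-higher entries had a median of 1.62, and the median over all tested entries, 1.39, was the lowest of the 26 libraries. There, 22.4% of tip-higher and 7.41% of base-higher entries lay above the midpoint, against 13.4% of all tested entries. As in the ear leaf, the tip-higher share was above the background and the base-higher share below it, although most tip-higher entries lay below the midpoint.

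Outside leaves the tip-higher entries were low. Their median was 0.08 to 0.49 in the stem, the internode, the 3 meristem libraries, the ears, tassels and inflorescence, the embryo and the endosperm, and higher in the primary roots (1.06 and 1.48). At the same time the median of all tested entries was 1.68 to 3.07 in these libraries. Base-higher entries had medians of 3.16 and 2.98 in the primary roots, above those of the leaf base itself. However, 76.2% and 73.8% of them lay above the midpoint in the roots, near the 73.8% and 73.9% of all tested entries. Counted by highest level, they differed more from the background. Of the 324, 48 (14.8%) were highest in the root labelled 6DAS and 43 (13.3%) in the V1 root. Among all tested entries these shares were 4.00% and 9.54%. The roots were not alone in this. The internode held 10.5% of base-higher entries against 3.12% of all tested, and the husk leaf 10.2% against 2.08%. The 2 mm tassel went the other way, with 7.41% of base-higher entries against 31.9% of all tested entries. The highest of all 26 levels fell in a leaf for 122 of 165 tip-higher entries (73.9%), for 106 of 324 base-higher entries (32.7%) and for 28.6% of all tested entries. These counts include the libraries behind the calls, since 52 of the 122 were highest in a tip library and 47 of the 106 in a base library.

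**Figure D3:**
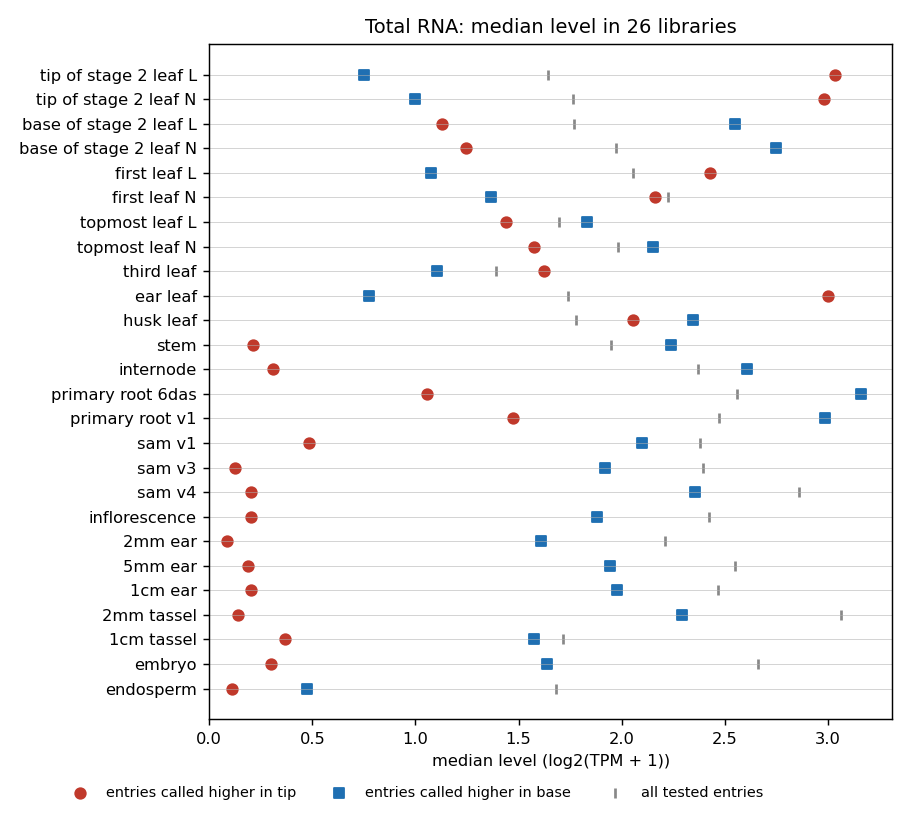
Median total RNA level in log2(TPM + 1) of the 165 entries called higher in the tip (red circles), the 324 called higher in the base (blue squares) and all 16238 tested entries (grey ticks) in each of the 26 total RNA libraries. The red and blue marks of the ear leaf lie where those of the tip do, and outside leaves the red marks fall to between 0.08 and 1.48.

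By kind of identifier, 427 of 13773 tested gene models were called (3.10%), 142 of them higher in the tip and 285 in the base. Of 1559 tested ZmLnc entries 43 were called (2.76%), 18 higher in the tip and 25 in the base, and of 758 ZmmRNA entries 17 (2.24%), 4 and 13. These shares lie near the 3.01% of all entries. None of 31 tested entries with the GRMZM5G prefix was called, with a median difference of 0.09. Within 5% or 0.1 TPM in all 26 libraries, 2 called gene models had the same values as a called ZmLnc entry, so these 4 calls are 2 signals. This rule does not find entries that run in parallel at different levels, such as Zm00001d048192 and ZmLnc005820.

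Ribosome-bound RNA of the L pair gave a second readout of the same positions, with 1 library for each end and therefore no test. Among the total RNA calls listed in that table, at 1 TPM or more at either end, 131 of 142 tip-higher entries lay above the median ribosome-bound difference and 276 of 279 base-higher ones below it, where 50% of all 13247 shared entries lie on each side. At least 2-fold beyond that median were 90 of the 142 and 219 of the 279, against 6.02% and 7.87% of all shared entries. Without centring, 113 of 142 and 279 of 279 had the sign of the call, while 77.3% of all shared entries were lower in the tip. The L libraries of total RNA helped to make the calls, and the 2 assays share their tissue, so these counts are not independent of them.

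The median ribosome-bound difference was -0.41 over 18989 entries, and 1 entry moved with it. Zm00001d019605, for which there is no total RNA value here, held 277709 TPM in tip L and 17717 TPM in base L, 27.8% against 1.77% of the library. With this entry left out and the sums made equal, the median difference was -0.02. In the other leaves with the letters L or N and in the third and ear leaf it held 385323 to 624752 TPM, and in the husk leaf 1210 TPM, so the leaf base stood between the husk leaf and the other leaves.

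At least 4-fold differences in ribosome-bound RNA were seen in 180 entries towards the tip (0.948%) and 705 towards the base (3.71%), or in 309 and 402 relative to the median difference. The widest difference towards the tip was in Zm00001d042143, with 374 TPM in tip L and 1.93 TPM in base L. In total RNA it was at 35.1 and 20.8 TPM in tip L and N and at 0.28 and 2.22 TPM in base L and N, so both assays and both letters pointed to the tip, although the total RNA difference of 3.79 was not called (limma adjusted p = 0.0529). In other leaves its ribosome-bound level was 0.34 to 28.7 TPM, so the tip library was the highest of the 20. Zm00001d003190 followed with 107 against 0.31 TPM. Its total RNA was 10.4 TPM in tip L but 0.39 TPM in tip N and 0.11 TPM in both base libraries, so the N pair showed little of the difference. Its ribosome-bound RNA was higher in the husk leaf (966 TPM) and in the primary roots (154 and 179 TPM).

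Towards the base, Zm00001d044401 and Zm00001d044402 were each listed with 1083 TPM in base L and 1.85 TPM in tip L. Their values were the same in every ribosome-bound library, so reads may have been shared between them and they are uncertain as separate genes. They also reached 556 TPM in the topmost leaf L and 246 TPM in the third leaf, and no more than 10.7 TPM in the libraries outside leaves.

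The total RNA of the N pair shares no library with the ribosome-bound L pair and was used to look at the ribosome-bound differences from outside. Of 161 entries at least 4-fold towards the tip and listed in both tables, 121 (75.2%) were higher in the tip in the N pair, where 26.6% of all 17264 listed entries were. Of 646 towards the base, 519 (80.3%) were lower in the tip of the N pair, where 69.4% of all were, which is a smaller distance from the background. The median total RNA difference of the N pair was 0.58 for the former and -0.59 for the latter, against -0.18 for all.

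**Figure D4:**
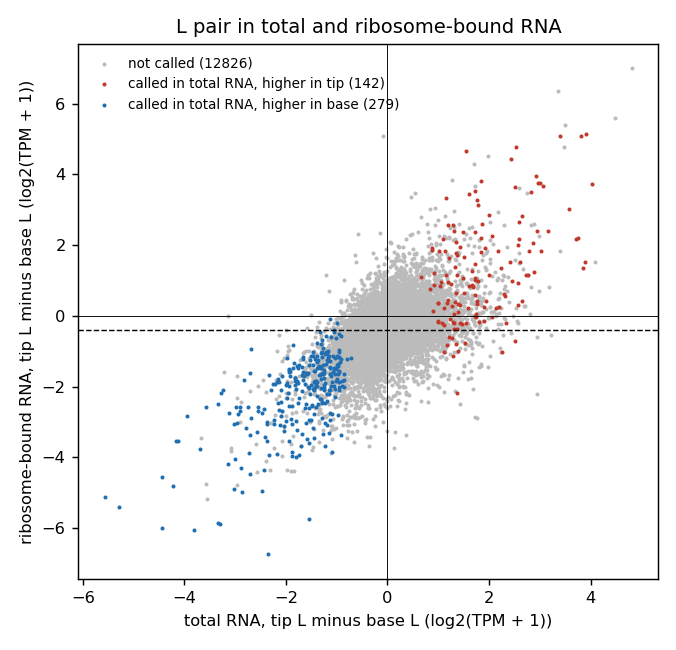
Difference between tip L and base L in log2(TPM + 1) for 13247 entries, in total RNA (horizontal) and ribosome-bound RNA (vertical); red and blue points are entries called in total RNA as higher in the tip (142) and in the base (279), and the dashed line is the median ribosome-bound difference. Nearly all blue points lie below the dashed line and most red points above it.

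For Zm00001d000417 the assays differed in size. Its ribosome-bound RNA was 29584 TPM in tip L and 5709 TPM in base L, a log2 difference of 2.37, whereas its total RNA in the same tissues differed by 0.80. Zm00001d048192 had 34.1 TPM of ribosome-bound RNA in tip L and was listed at 0 in base L.

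Over 11726 entries with at least 1 TPM at either end in both assays, the ribosome-bound difference minus the total RNA difference of the L pair had a median of -0.29. It was -0.77 over 142 tip-higher entries and -0.39 over 279 base-higher ones. Since the tip-higher entries were chosen partly on a high difference in the same total RNA libraries, a lower value for them is built into this measure. For the base-higher entries the same choice acts upwards, and their value still lay below the -0.29 of all entries. The reason for this was not tested. In 23 entries (0.196%) the ratio was at least 4-fold higher in the tip and in 258 (2.2%) at least 4-fold higher in the base. Relative to the median the counts were 39 and 146, and after quantile normalization 48 and 114. The entry Zm00001d052673 had 18.9 TPM ribosome-bound in tip L and 147 TPM in base L, while its total RNA was 18.7 and 4.82 TPM, so the assays pointed to opposite ends. Zm00001d011515 was listed at 0 ribosome-bound in tip L and at 3.67 TPM in base L, against 9.18 and 0.32 TPM in total RNA. Zm00001d031155 and Zm00001d031157 had the same values, 33.2 TPM ribosome-bound in tip L and 0 in base L, with 1.94 TPM and 0 in total RNA, and may share reads. No fold is given where an end is listed at 0.

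Small RNA, the short RNAs that guide silencing and the fragments of longer ones, was measured in separate libraries of the same ends and letters and differed between tip and base in many more features. Of 86843 features with at least 1 TPM in at least 2 of 8 leaf libraries, limma called 7089 higher in the tip (8.16%) and 1809 higher in the base (2.08%). An unadjusted p under 0.05 was reached by 80861 features, 71549 of them lower in the tip, so the required 2-fold difference and not the p set most of these calls. The median over all features was -0.62, so most features were lower in the tip, and at least 1 TPM was listed for 73033 and 69063 features in the tip against 85257 and 84820 in the base. The listed values summed to 998624 and 998893 TPM in tip L and N and to 997300 and 997352 TPM in base L and N. They are shares of a nearly fixed sum, in which a rise of some features lowers others. The part of this in the median was not tested. After quantile normalization the median was -0.15, and 6934 features were higher in the tip and 1193 in the base. Without base L the number higher in the base rose to 5933, and without tip L to 3329. Differences were small in size, with a median of 1.47 among the tip-higher and 1.11 among the base-higher features. The L and N pairs correlated with r = 0.944 and rho = 0.764 across features, which may overlap in sequence.

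ZmsRNA198103 was at 48.1 and 43.9 TPM in tip L and N and at 9.58 and 8.80 TPM in the base. The ends did not overlap, as in most of the 86843 features (9664 with the tip higher and 73666 with the base higher). For ZmsRNA198103 the log2 difference was 2.20 (SE 0.211, limma adjusted p = 2.55e-08). ZmsRNA099584 ran in parallel with it, at 42.3 and 38.6 TPM in the tip and 8.52 and 7.69 TPM in the base, a log2 difference of 2.19 (SE 0.207). Both were similarly high in the first leaf, the former at 47.4 and 56.4 TPM, and at 1.87 TPM or less in every library outside leaves.

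In the other direction, ZmsRNA183166 was at 15.0 and 11.3 TPM in base L and N and at 1.76 and 1.37 TPM in the tip, a log2 difference of -2.46 (SE 0.130, limma adjusted p = 1.09e-10). ZmsRNA091122 was at 63.1 and 49.6 TPM in the base and 11.3 and 8.37 TPM in the tip, a log2 difference of -2.41 (SE 0.152). Both were most abundant in the husk leaf, at 54.2 and 211 TPM, and were also high in the embryo, at 34.6 and 137 TPM.

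The small RNA groups were followed through the other tissues in the same way. Tip-higher features had medians of 4.81 and 5.03 in the first leaf, 4.65 in the third leaf and 3.82 in the ear leaf, on the log2(TPM + 1) scale, against 4.71 and 5.13 in the tip and 3.47 and 3.36 in the base. In the topmost leaf they were at 2.18 and 2.89, below the leaf base. Outside leaves they were at 1.26 to 1.96. Base-higher features stood at 3.29 and 3.15 in the base, at 3.05 to 3.60 in the topmost leaf and husk leaf, and at 2.70 to 3.60 in the libraries outside leaves. The median of all tested features was 2.29 and 2.03 in the tip, 2.68 and 2.71 in the base and 2.55 to 2.90 outside leaves.

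**Figure D5:**
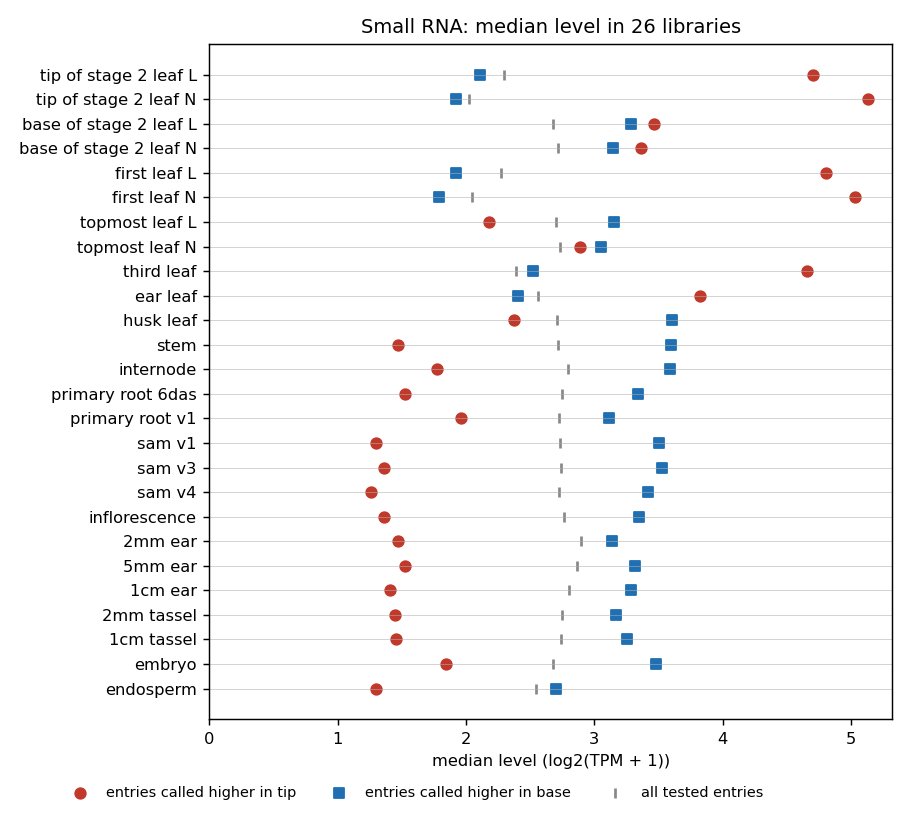
Median small RNA level in log2(TPM + 1) of the 7089 features called higher in the tip (red circles), the 1809 called higher in the base (blue squares) and all 86843 tested features (grey ticks) in each of the 26 small RNA libraries. Red marks lie right of the blue ones in the tip, the first leaf, the third leaf and the ear leaf, close to them in the base, and left of them in every other library.

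Circular RNA, formed when the ends of an exon are joined back to back, gave few differences at its depth. The recovered reads were 17289 in tip L, 27356 in tip N, 27918 in base L and 17867 in base N, so depth did not follow the end of the leaf. In limma's test none of 6655 circRNAs was called (0%), with 470 at an unadjusted p under 0.05, while edgeR's quasi-likelihood test on the recovered reads called 8 higher in the tip and 21 in the base. The L and N pairs correlated with r = 0.116 across circRNAs. ZmCirc041312 had a signal of 7210 and 7235 in base L and N and of 302 and 812 in tip L and N, a log2 difference of -3.73 (SE 0.441) with a limma adjusted p of 0.304 and an edgeR adjusted p of 4.45e-18. ZmCirc060191 had a signal of 1206 and 1242 in the tip and of 96.1 and 0 in the base, with a limma adjusted p of 0.304 and an edgeR adjusted p of 9.80e-07. The ends did not overlap in either, as in 607 of the 6655 circRNAs towards the tip and 750 towards the base. ZmCirc041252 had 9109 and 9121 in the tip and 3317 and 3127 in the base, and ZmCirc036709 was at 0 in both tip libraries and at 1202 and 736 in base L and N. These 4 were chosen after their values were seen, as those with the smallest unadjusted p in each direction.

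The list of protein pairs deposited with the series, whose leaf pool included tip L and base L, was searched for the called genes. Of 142 tip-higher gene models 108 (76.1%) had at least 1 partner, against 264 of 285 base-higher ones (92.6%) and 93.3% of all 13804 tested. This last number includes the tested GRMZM5G entries. The median number of partners of those listed was 4, 13 and 14. The pairs held 1 that joined 2 tip-higher genes (0.0173% of the possible ones), 49 that joined 2 base-higher genes (0.141%) and 20 that joined a tip-higher with a base-higher gene (0.0701%), against 0.232% for all tested genes. Possible pairs were counted only among genes with at least 1 partner. The list gives no score and no pool for a pair, and these shares carry no test.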

How the data were processed

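The deposited tables of total and ribosome-bound RNA hold TPM. Small RNA values were deposited as log2(TPM + 1) by their behaviour, although named TPM, and were tested as they are. CircRNA values, named CPM, were deposited as a signal in which 100% of values are whole multiples of a step of the library within 0.001, so whole reads were recovered. The submitters' processing notes name cutadapt 1.9.1, SAMtools 1.9, RSEM, Bowtie 1.1.2, StringTie, HISAT and the build B73 RefGen_v4, without roles. The protein pairs carry no value. A single line holding 2 records was split.

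Differences were tested with limma 3.58.1 (trend) in R 4.3.3 on log2(TPM + 1), or log2(signal + 47.8) for circRNAs above 0 in 2 libraries. Each fit held 8 leaf libraries, tip, base, first and topmost leaf with L and N, with position as factor and letter as block, leaving 3 residual degrees of freedom. The spread is thus partly that of leaves at V3. In total RNA the differences between L and N correlated with r = 0.501 to 0.699 over the 6 pairs of positions. Between tip and base this r was -0.126 in small RNA and 0.0043 in circRNA, where the block was kept as planned although the letters did not pair the libraries. Fits were tested on simulated data. edgeR 4.0.16 was an added alternative. Named entries are the 2 called ones with the largest difference in each direction, the 2 largest for each untested comparison, and the most abundant entry. Groups, lists and comparisons were chosen with earlier results of these data known, and 20 gene lists could not be measured since 0 identifiers matched the 49888 genes of the reference table for Zm-B73-REFERENCE-NAM-5.0.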

Additional observations from a re-analysis of the deposited data

Results flagged for a closer look

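In total RNA 42 entries differed at least 2-fold between tip and base in opposite directions in L and N, a difference that was not tested. The widest, chosen after its values were seen, was Zm00001d008548, with 41.9 TPM in tip L and 5.39 TPM in base L, but 4.51 TPM in tip N and 18.4 TPM in base N. Among circRNAs 634 features did so, also untested, against 365 that differed at least 2-fold towards the tip and 363 towards the base in both letters. Recovered reads were higher in tip N and base L than in tip L and base N, and the part of depth in these opposite differences was not tested.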

How the results depend on the processing

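In total RNA, without the replicate block of the letter 96 entries were called (26 higher in the tip, 70 in the base), and all 96 were among the 489. With only the 4 stage 2 libraries and the block, limma called 0 of 14078, with 3425 at an unadjusted p under 0.05. Other settings also changed the number tested, 16238 in the main fit. Without a filter 108 of 33776 were called (33 and 75), and at 5 TPM 253 of 7143 (96 and 157). At a pseudocount of 0.1 it was 850 of 16238 (265 and 585), and with listed sums made equal 1936 of 21789 (356 and 1580). Without the most abundant entry and rescaled, 1001 of 22976 were called (346 and 655). Quantile normalization gave 280 higher in the tip, and makes the most abundant entry equal in all libraries. Leaving out 1 library gave 29 to 125 calls, 11 to 59 higher in the tip and 18 to 72 higher in the base. The cause of these changes was not tested. The 4 named calls kept their direction in all 14 alternatives, at an adjusted p of 0.0652 with only the 4 libraries.

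For small RNA, leaving out 1 library gave 7497 to 13516 calls, 5932 to 7583 higher in the tip and 1401 to 5933 in the base, and quantile normalization 1193 in the base. The letter changed no small RNA count (8898). For circRNA, limma called 17 of 3456 (4 and 13) with the 4 libraries and the replicate block, and 18 of 19292 (4 and 14) without a filter. It called 0 in the other limma fits that kept both libraries of each end. edgeR, chosen after seeing the data, called 29 (8 and 21), or 32 (9 and 23) without normalization factors. Ribosome-bound 4-fold counts towards tip and base were 511 and 1652 at a pseudocount of 0.1, 306 towards the tip without the most abundant entry, and 309 and 402 relative to the median. The ratio counts were 54 and 472 at a pseudocount of 0.1, 48 and 114 after quantile normalization and 39 and 146 relative to the median, an alternative chosen after seeing the data. TPM and log2 values keep no depth.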
